A study of Mus musculus with 12 samples.

Results

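The data describe 6 genes of the somatostatin system in the mouse brain, the ligand genes *Sst* (somatostatin) and *Cort* (cortistatin) and the receptor genes *Sstr1*, *Sstr2*, *Sstr3* and *Sstr4*. They were chosen by symbol from the 23183 genes listed for each of 12 libraries, and all 6 were found once in every library and passed the filter on low values in both regions. Cortex and hippocampus tissue of male C57BL/6 mice was sequenced. The mice were 7 weeks old on arrival and were kept for 1 week before treatment. IR mice received 10 Gy of cranial X-rays once, at 2 Gy per minute, Con mice were sham-irradiated, and tissue was taken 3 months later. Each region had 3 Con and 3 IR libraries. The sources used here do not say whether each library came from a separate mouse or whether cortex and hippocampus were taken from the same mice, so the p values measure the spread between these libraries. The value columns of cortex and hippocampus carry different endings, and the sources do not say what these stand for. If they stand for separate processing, it cannot be told apart from region.

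Somatostatin is an inhibitory neuropeptide made in the cortex and the hippocampus by a class of GABA interneurons that mostly contact the dendrites of other neurons. Cortistatin is made from a separate gene, mainly in cortical and hippocampal interneurons, carries a very similar cyclic peptide at the end of its precursor and binds the same receptors. These receptors couple to inhibitory G proteins, which lower cAMP, open inwardly rectifying potassium channels and close voltage-gated calcium channels. The *Sst* gene is itself a classic target of the cAMP-regulated factor CREB, which binds the palindrome TGACGTCA.

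The values are FPKM, that is, fragments mapped to a gene divided by its transcript length and by the number of fragments mapped in the library. Levels can be compared between genes per length of transcript. The depth in reads is unknown. A ratio of each library to Con 1 of its region, taken from the spacing of its low values, was 1 to 1.125. Per the paper's methods the values were also scaled by a geometric normalization, so this ratio cannot be read as one of depths. For hippocampus IR 1, which gave the 1.125, it rested on 20 of 610 genes with low values, against 242 of 770 for cortex IR 3. No pair of libraries held identical values. Region labels held in the markers, since all 5 cortex markers were lower and 5 of 6 hippocampus markers were higher in Con hippocampus (adjusted p under 0.05, limma). The library hippocampus Con 3 stood apart, because 4 of 14043 genes had an adjusted p under 0.05 for IR against Con with it and 880 without it. The tests on the hippocampus are therefore given with and without it for the genes that they turn on.

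The coding sequence of the mature 14-residue somatostatin and the stretch of *Cort* that aligns with it are shown because the shared ring sequence underlies the binding of both peptides to the same receptors. They were read from GENCODE M21 transcripts on GRCm38, 5′ to 3′ on the coding strand, and capitals mark the bases that the pair shares. *Sst* lies on chr16:23889573-23890958 (minus strand) and the peptide is codons 103 to 116 of 116, at chr16:23889732-23889773. *Cort* lies on chr4:149125034-149126763 (minus strand) and the aligned stretch is codons 95 to 108 of 109, which leaves out the last codon of the precursor, at chr4:149125270-149125311.
*Sst*: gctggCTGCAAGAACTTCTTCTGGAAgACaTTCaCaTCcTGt
*Cort*: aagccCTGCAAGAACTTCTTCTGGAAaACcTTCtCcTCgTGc
Of the 42 bases, 31 (73.8%) were identical, among them an uninterrupted run in the first part of the ring, and 11 of 14 codons encoded the same residue.

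The starts of 3 of the genes are shown for their matches to the cAMP response element, in which the ligand genes differed. RefSeq windows of 300 bases around each start (GRCm38.p6) were searched on both strands for the full site TGACGTCA and the partial site TGACG, which every full site also contains on both strands. The last 120 bases before the RefSeq start are printed 5′ to 3′ on the strand of the gene, with the site in capitals, for *Cort* (chr4:149126764-149126883, minus strand) and *Sstr2* (chr11:113619207-113619326, plus strand). For *Sst* the annotations differ, since RefSeq starts the gene at base 23890844 of chromosome 16 and GENCODE at base 23890958, so that 114 of the 120 bases before the RefSeq start, the site included, lie in the 5′ untranslated part of the first GENCODE exon. Of *Sst* only 28 bases around the site are therefore printed (chr16:23890875-23890902, minus strand).
*Sst*: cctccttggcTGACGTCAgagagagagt
*Cort*: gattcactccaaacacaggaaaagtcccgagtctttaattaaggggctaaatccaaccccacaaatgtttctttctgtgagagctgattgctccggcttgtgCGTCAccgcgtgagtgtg
*Sstr2*: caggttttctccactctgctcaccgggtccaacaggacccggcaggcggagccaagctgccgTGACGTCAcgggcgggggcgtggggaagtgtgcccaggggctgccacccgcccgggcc
Counted from the RefSeq start, the full site began at position -48 in *Sst* and at -58 in *Sstr2*, and 588 of all 32851 promoter windows (1.79%) held one. *Cort* held the partial site alone, on the opposite strand and with its first printed base at -18, and 20.8% of all windows held at least a partial site. *Sstr3* had 1 partial site in 1 of its listed windows, and *Sstr4* had none. *Sstr1* was not searched. Such a match is a description of these letters and not evidence of binding.

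In Con mice, somatostatin was among the most abundant transcripts of both regions, and the other 5 genes were at moderate levels. *Sst* ranked 125 of 23183 genes by mean FPKM in the cortex and 198 in the hippocampus. Its FPKM in the cortex was 319.6, 394 and 342 in Con 1 to Con 3, and in the hippocampus it was 261, 190.1 and 320.3. The hippocampus libraries were mostly lower, but Con 3 lay within the cortex range, and the log2 fold change of hippocampus against cortex was -0.48 (SE 0.17, adjusted p = 0.0606 from limma). Without hippocampus Con 3 it was -0.65 with an adjusted p of 0.00694. Leaving out 1 library moved it between -0.65 and -0.28, and over the 13 alternatives the adjusted p reached 0.182. In bulk tissue, fewer cells of a type and less RNA per cell cannot be told apart.

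*Cort* differed more between the regions. Its FPKM was 6.84, 9.23 and 7.10 in the Con cortex and 4.29, 2.05 and 3.73 in the Con hippocampus. Every hippocampus library lay below every cortex library, and the group means were 7.73 ± 1.31 and 3.36 ± 1.16 FPKM (SD, n = 3). The log2 fold change was -1.03 (SE 0.20, adjusted p = 0.00432), and it stayed past the threshold in each of the 13 alternatives, with -1.11 and an adjusted p of 0.00785 without hippocampus Con 3. Relative to *Sst* in the same library, *Cort* amounted to 2.14%, 2.34% and 2.08% of the *Sst* FPKM in the cortex and to 1.65%, 1.08% and 1.16% in the hippocampus, again without overlap.

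Of the receptors, *Sstr3* and *Sstr4* were higher and *Sstr1* and *Sstr2* lower in the hippocampus. *Sstr4*, a receptor known for its high level in the rodent hippocampus, was listed at 7.30, 7.48 and 7.73 FPKM in the Con cortex and at 18.9, 19.4 and 22.7 FPKM in the Con hippocampus. The groups were far apart, with a ratio of means of 2.70 and a log2 fold change of 1.32 (SE 0.09, adjusted p = 3.93e-06). *Sstr3*, the receptor that localizes to the primary cilium of neurons, was listed at 10.03, 9.13 and 9.76 FPKM in the cortex and at 16.2, 14.3 and 11.8 FPKM in the hippocampus. It was also higher in each hippocampus library, with a log2 fold change of 0.49 (SE 0.11, adjusted p = 0.00643).

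*Sstr2*, the receptor that internalizes readily and is the main target of the clinical analog octreotide, showed the reverse. Its FPKM was 7.44, 7.26 and 7.31 in the Con cortex and 2.98, 1.96 and 3.24 in the Con hippocampus. The cortex libraries were nearly equal and lay well above the hippocampus libraries, at a log2 fold change of -1.18 (SE 0.13, adjusted p = 0.000114). *Sstr1*, known as a presynaptic receptor that can act as an autoreceptor of somatostatin neurons, was listed at 9.49, 8.04 and 9.65 FPKM in the cortex and at 8.10, 5.86 and 5.74 FPKM in the hippocampus. Hippocampus Con 1 lay just above the lowest cortex library, and the log2 fold change was -0.42 (SE 0.13, adjusted p = 0.0277). The call for *Sstr1* was lost in 5 of 13 alternatives, 4 of which left out a library, with an adjusted p of 0.0670 without hippocampus Con 3, 0.0974 without hippocampus Con 2, 0.0893 without cortex Con 1 and 0.0953 without cortex Con 3.

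Without hippocampus Con 3 the log2 fold changes of *Sstr2*, *Sstr3* and *Sstr4* were -1.28, 0.61 and 1.24, each with an adjusted p under 0.05. By these tests 5 of the 6 genes differed between the regions, 2 higher and 3 lower in the hippocampus. Among all 14169 genes tested, 36.3% had an adjusted p under 0.05, so a regional difference was common, with 19% of genes called higher and 17.3% called lower. All 6 had an unadjusted p under 0.05, where the share over all genes was 45.7%, and the Con libraries did not overlap for 4 of 6, where it was 49.8%. The order of the receptors by level was *Sstr3*, *Sstr1*, *Sstr4* and *Sstr2* in the cortex, where neither the first pair nor the last pair was separated by the libraries. In the hippocampus the order was *Sstr4*, *Sstr3*, *Sstr1* and *Sstr2*, and no neighbours overlapped. *Sstr5*, which was not among the 6 genes, was listed at no more than 0.139 FPKM in any library and did not pass the filter.

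**Figure D1:**
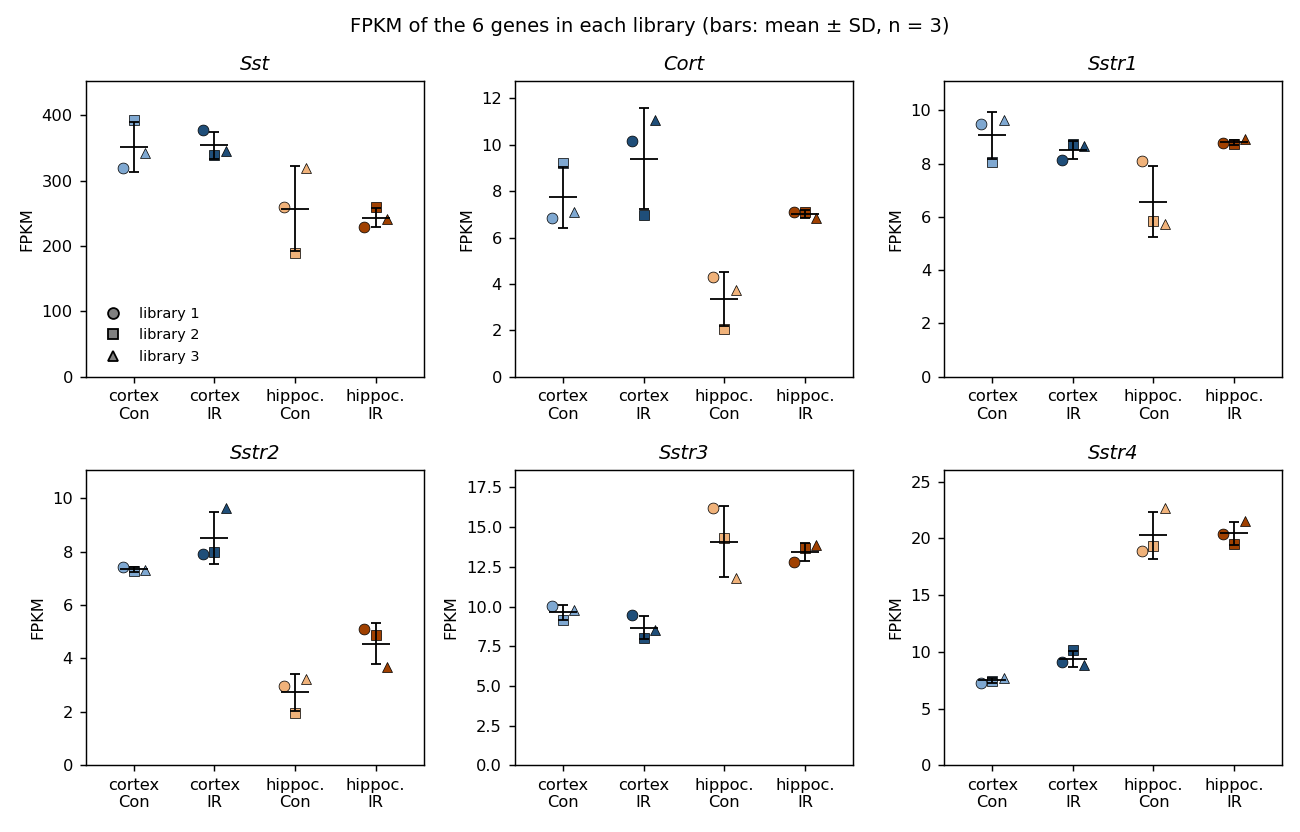
FPKM (y axis, from 0) of the 6 genes in each library of the 4 groups (x axis), with the mean and SD of 3 libraries as bars and the library number as marker shape. In the hippocampus, *Cort* lies between 2.05 and 4.29 FPKM in Con and between 6.83 and 7.12 FPKM in IR, while the *Sst* values of Con and IR overlap.

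In the hippocampus after irradiation, *Cort* was listed at 2.09 times and *Sst* at 0.947 times its mean in Con. *Sst* was listed at 229.6, 259 and 242 FPKM in IR, which lay inside the range of the Con libraries given above. Its log2 fold change was -0.05 with a 95% interval from -0.44 to 0.34 (adjusted p = 0.915), and without Con 3, the highest Con library, it was 0.13. No difference in *Sst* was detectable with this spread. *Cort* was listed at 7.12, 7.11 and 6.83 FPKM in IR. All IR libraries lay above all Con libraries, at a mean of 7.02 ± 0.162 against 3.36 ± 1.16 FPKM (SD, n = 3), a ratio of 2.09.

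The log2 fold change of *Cort* was 0.92 (95% interval 0.49 to 1.34, unadjusted p = 0.00104), which did not pass after adjustment over all genes (adjusted p = 0.216 from limma). Without hippocampus Con 3 it was 1.00 with an adjusted p of 0.0442, and over the 13 alternatives the adjusted p lay between 0.0442 and 0.573 and the unadjusted p stayed under 0.05. Of the 6 genes, 1, *Cort*, met a fold of 1.5 with an unadjusted p under 0.05, which 0.527% of all tested genes did. The Con libraries scattered far more widely than the IR libraries here, whose SD was the smallest of the 4 groups for this gene. The exact permutation test gave p = 0.1, the smallest it allows with 3 libraries against 3.

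The balance of the ligands within a library showed the same pattern. In the IR hippocampus *Cort* amounted to 3.10%, 2.74% and 2.83% of the *Sst* FPKM, at a mean of 2.89% ± 0.187 against 1.30% ± 0.306 in Con (SD, n = 3). No IR library overlapped with a Con library, and the Con mean was 1.36% without Con 3. In the cortex this share was 2.69%, 2.05% and 3.21% in IR and overlapped with Con. These shares are given as a description, and no test was made of them.

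The hippocampal receptors were in part higher in IR as well. *Sstr2* was listed at 5.11, 4.89 and 3.67 FPKM in IR, all above the highest Con library. The means were 2.73 ± 0.675 and 4.56 ± 0.777 FPKM, a ratio of 1.67, and the log2 fold change was 0.58 (95% interval 0.22 to 0.95, unadjusted p = 0.00620, adjusted p = 0.257). On the log2(FPKM + 1) scale this was just short of a 1.5-fold change, which the ratio of means exceeded. Without Con 3, the highest Con library, the log2 fold change was 0.69 with an adjusted p of 0.0555.

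*Sstr1* was listed at 8.76, 8.74 and 8.91 FPKM in the IR hippocampus, also above all Con libraries. The means were 6.57 ± 1.33 and 8.80 ± 0.0933 FPKM, and the log2 fold change was 0.39 (95% interval 0.12 to 0.66, unadjusted p = 0.0106, adjusted p = 0.278). As for *Cort*, the IR libraries were almost equal while Con 1 lay well above Con 2 and Con 3, and without Con 3 the log2 fold change was 0.31 (adjusted p = 0.152). For the receptors that led in this region the groups overlapped. *Sstr3* was listed at 12.8, 13.7 and 13.9 FPKM in IR and had a log2 fold change of -0.05 (95% interval -0.30 to 0.20). *Sstr4* was listed at 20.4, 19.5 and 21.5 FPKM in IR and had a log2 fold change of 0.02 (95% interval -0.17 to 0.21). Without Con 3 these values were -0.17 and 0.09, with an adjusted p of 0.221 and 0.413.

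In the hippocampus, 0 of the 6 genes passed the adjusted test, where 0.0285% of all 14043 genes did. At an unadjusted p under 0.05, 3 of 6 were found, *Cort*, *Sstr1* and *Sstr2*, all higher in IR, where 13.9% of all genes were found in either direction and 7.06% as higher. These 3 genes stayed under this p in each of the 13 alternatives, while the share of all genes was 8.35% to 26% when 1 library was left out, the highest without Con 3 and the lowest without IR 1. The same 3 genes had no overlap between Con and IR, as did 19.8% of all genes. These 3 genes were also called lower in the Con hippocampus than in the Con cortex, where *Sst* was lower without passing the adjusted test. Both comparisons used the same Con libraries of the hippocampus and are not independent of each other.

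**Figure D2:**
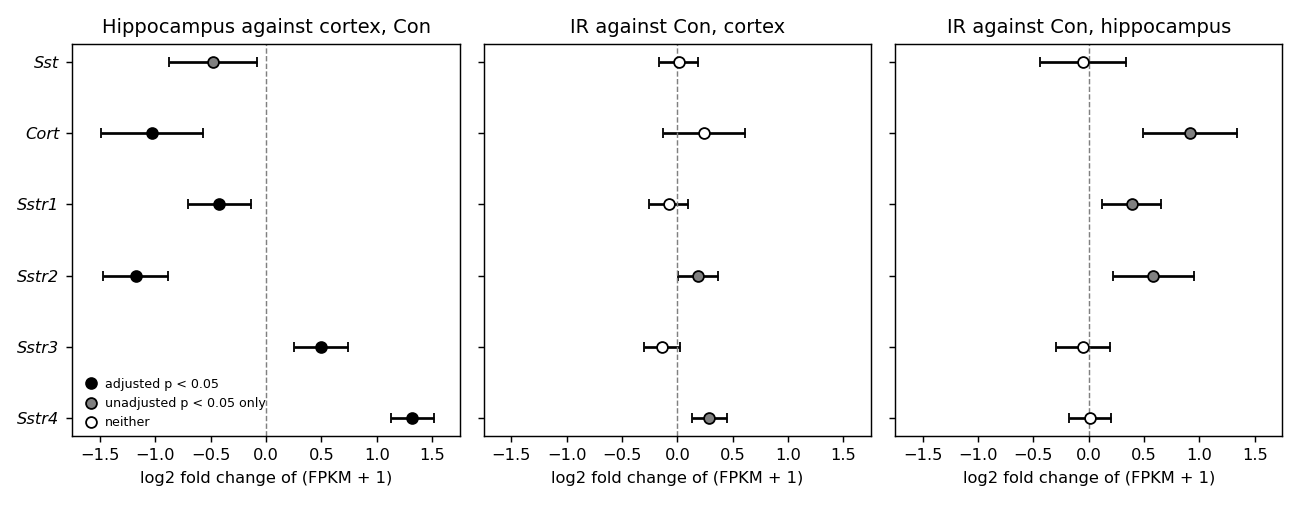
Log2 fold changes of FPKM + 1 (x axis) of the 6 genes (y axis) with 95% intervals from limma, for hippocampus against cortex in Con, for IR against Con in the cortex and for IR against Con in the hippocampus. Filled black points had an adjusted p under 0.05, which is seen for 5 genes in the regional comparison and for 0 genes after irradiation.

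In the cortex, *Sstr4* had the smallest p of the 6 genes. It was listed at 9.07, 10.2 and 8.89 FPKM in IR, all above the Con libraries, which were nearly equal. The means were 7.50 ± 0.215 and 9.39 ± 0.708 FPKM (SD, n = 3), higher by 25.1%, and the log2 fold change was 0.29 (95% interval 0.13 to 0.44, unadjusted p = 0.00232, adjusted p = 0.116). In each of the 13 alternatives the unadjusted p stayed under 0.05, and the adjusted p lay between 0.106 and 0.309. *Sstr2* was listed at 7.91, 7.99 and 9.62 FPKM in IR, also without overlap, with a log2 fold change of 0.19 (unadjusted p = 0.0439, adjusted p = 0.336) that was 0.10 without IR 3. The unadjusted p of *Sstr2* was above 0.05 in 6 of 13 alternatives, among them those without any 1 of the Con libraries or without IR 3.

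The other 4 genes overlapped between Con and IR in the cortex. *Cort* was listed at 10.1, 6.95 and 11.1 FPKM in IR, a log2 fold change of 0.24 with a wide 95% interval from -0.13 to 0.61 (adjusted p = 0.556). Leaving out 1 library moved this value between 0.12 and 0.42. *Sst* was listed at 378, 339 and 346 FPKM in IR, with a log2 fold change of 0.01 (95% interval -0.16 to 0.19). *Sstr1* at 8.13, 8.74 and 8.64 FPKM and *Sstr3* at 9.48, 8.02 and 8.52 FPKM had log2 fold changes of -0.08 and -0.14 (adjusted p = 0.698 and 0.441). Of the 6 genes 0 passed the adjusted test in the cortex, where 0.725% of 14065 genes did, 2 had an unadjusted p under 0.05, where 14.1% did, and 2 had no overlap, where 20.3% had none. A fold of 1.5 with an unadjusted p under 0.05 was met by 0 of 6, where 0.483% of all genes met it.

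The regions were then compared in their response. The interaction of IR and region, in a fit of all 12 libraries, had an unadjusted p under 0.05 for 3 of 6 genes, where 10.3% of 14577 genes did, and an adjusted p under 0.05 for 0 of 6, where 0.0823% did. For *Sstr1* the log2 fold change for IR was higher in the hippocampus than in the cortex by 0.47 (unadjusted p = 0.00731, adjusted p = 0.333), and this unadjusted p stayed under 0.05 in each of 18 alternatives. For *Cort* it was higher by 0.68 (unadjusted p = 0.0302, adjusted p = 0.437). For *Sstr4* the interaction was -0.27, so that its log2 fold change was higher in the cortex (unadjusted p = 0.0248, adjusted p = 0.418). For *Sstr2* the interaction was 0.40 with an unadjusted p of 0.0545. The unadjusted p was under 0.05 in 13 of 18 alternatives for *Cort* and *Sstr4* each and in 5 of 18 for *Sstr2*. Leaving out 1 library moved the interaction between 0.24 and 0.52 for *Sstr2* and between 0.44 and 0.84 for *Cort*. Without hippocampus Con 3 the interaction was 0.39 for *Sstr1*, 0.76 for *Cort* and 0.50 for *Sstr2* (unadjusted p = 0.0193, 0.0291 and 0.0193, adjusted p = 0.157, 0.193 and 0.156), and -0.19 for *Sstr4* (unadjusted p = 0.0605). A different response of the regions was thus not shown for any of the 6 genes after adjustment.

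When the difference shared by both regions was fitted, *Cort* was higher in IR by 0.58 (SE 0.17, adjusted p = 0.101) and *Sstr2* by 0.38 (SE 0.11, adjusted p = 0.0875) on the log2 scale. *Sstr4* was higher by 0.15 (unadjusted p = 0.0327, adjusted p = 0.243), which made 3 of 6 genes under an unadjusted p of 0.05, where 17.5% of all genes were. None of the 6 passed the adjusted test, which 1.22% of all genes did. Without hippocampus Con 3 the values were 0.58 for *Cort* (adjusted p = 0.118), 0.41 for *Sstr2* (adjusted p = 0.0784) and 0.20 for *Sstr4* (adjusted p = 0.0715). Without cortex IR 2, the lowest *Cort* library of that group, *Cort* was higher by 0.70 with an adjusted p of 0.0498.

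By the ratio of group means, the regions stood closer to each other in IR than in Con for 4 of the 6 genes. The share of all genes for which this held was not computed, so the count is a description only. *Cort* in the hippocampus was 0.435 of the cortex level in Con and 0.747 of it in IR, where the libraries of the regions overlapped. *Sstr1* went from a ratio of 0.724 to 1.04, *Sstr2* from 0.372 to 0.536 and *Sstr4* from 2.70 to 2.18. *Sst* had ratios of 0.731 and 0.687 and *Sstr3* of 1.46 and 1.55. These ratios of mean FPKM describe the interaction on another scale, and none of the 6 genes passed its adjusted test given above.

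As a share of the summed FPKM of *Sstr1* to *Sstr4*, the receptors were nearly even in the Con cortex, at 26.98% *Sstr1*, 21.9% *Sstr2*, 28.7% *Sstr3* and 22.4% *Sstr4* on average. In the Con hippocampus *Sstr4* made up 46.6% and *Sstr2* 6.22%. After irradiation *Sstr2* made up 9.65% and *Sstr1* 18.6% of the sum in the hippocampus, against 15.0% *Sstr1* in Con, while *Sstr3* made up 28.5% against 32.2% and *Sstr4* 43.3% against 46.6%, both with overlap. In the cortex *Sstr4* took 21.3% to 23.4% in Con and 24.9% to 29.2% in IR, and *Sstr3* 28.3% to 29.3% in Con and 23.0% to 27.4% in IR. The share of *Sstr1* there was 25.2% to 28.01% in Con and 23.5% to 25.01% in IR, and that of *Sstr2* 21.2% to 22.7% in Con and 22.9% to 26.97% in IR. None of the 4 cortex shares overlapped between Con and IR, and since they sum to the whole they are not independent of each other. The gap was narrow for *Sstr1* (25.20% in Con 2 against 25.01% in IR 2) and for *Sstr2* (22.74% against 22.85% in the same libraries). The FPKM of *Sstr1* and *Sstr3* themselves overlapped there, and 20.3% of all genes had no overlap in FPKM. In the hippocampus the sum itself averaged 43.7 ± 2.33 FPKM without and 47.3 ± 0.598 FPKM with irradiation, and in the cortex 33.5 ± 1.41 and 35.1 ± 0.547 FPKM (SD, n = 3).

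**Figure D3:**
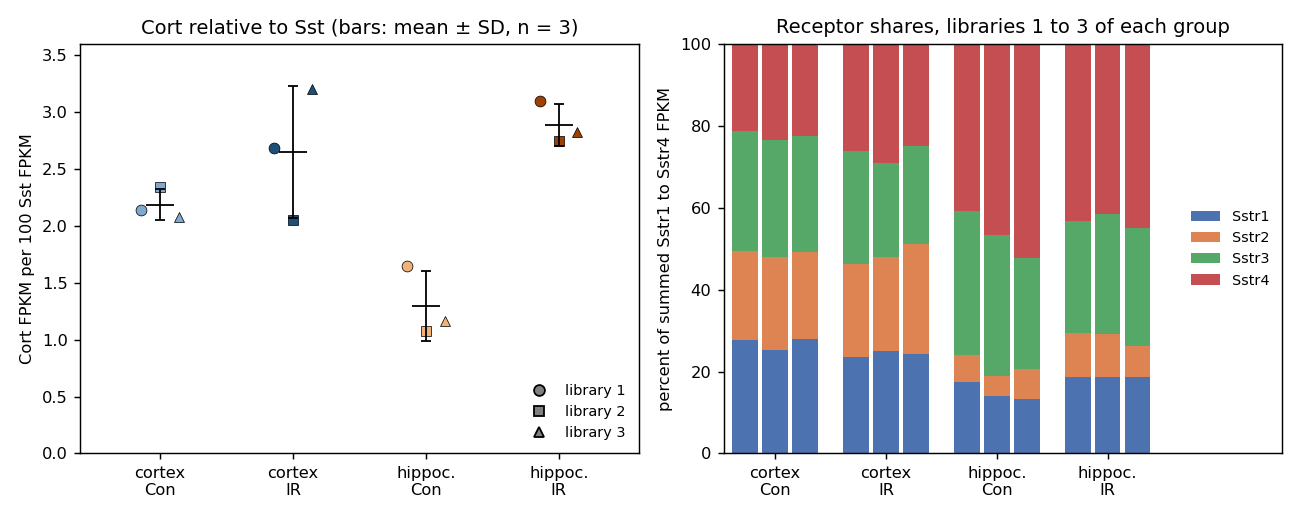
Left, *Cort* FPKM per 100 *Sst* FPKM (y axis, from 0) in each library of the 4 groups, with mean and SD of 3 libraries. Right, each receptor as percent of the summed *Sstr1* to *Sstr4* FPKM in each library, where *Sstr4* takes 46.6% on average in the Con hippocampus and 22.4% in the Con cortex.

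Neighbouring genes were looked at because reads of an overlapping gene could enter an FPKM. *Sstr2* lies on chr11:113619342-113626028 (plus strand) within *Slc39a11*, a zinc transporter gene on the opposite strand, and whether the authors' counting used strand is not given in the sources used here. *Slc39a11* went the other way between the regions, at 5.78 ± 0.861 FPKM in the Con cortex and 9.97 ± 2.43 FPKM in the Con hippocampus (SD, n = 3, log2 fold change 0.68, adjusted p = 0.0104), and its log2 fold change for IR was 0.03 in the hippocampus. *Cort* lies 357 bases from *Cenps*, a kinetochore gene of the same strand that is listed as *Apitd1*. *Apitd1* had a log2 fold change for IR of -0.01 in the hippocampus (adjusted p = 0.966) and was lower in the Con hippocampus than in the Con cortex by 0.48 on the log2 scale (log2 fold change -0.48, adjusted p = 0.0257). *Dffa*, on the other side of *Cort*, had a log2 fold change for IR of 0.01 in the hippocampus. No annotated gene overlapped the other 5 genes, which for the receptors are *Sstr1* at chr12:58211772-58214444 (plus strand), *Sstr3* at chr15:78537008-78544685 (minus strand) and *Sstr4* at chr2:148395344-148396767 (plus strand).

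Genes that accompany the peptides were counted in lists, to be read beside the shares of all genes given above for each comparison. In the hippocampus these counts rest in part on Con 3. Without it, where 6.33% of all genes passed the adjusted test, 1 gene passed in each of 3 lists, namely *Cpe*, a carboxypeptidase of peptide processing (log2 fold change -0.28, adjusted p = 0.0452), *Arrb2*, a beta-arrestin gene (0.27, adjusted p = 0.0495), and *Prkar1a*, a regulatory subunit gene of the cAMP-dependent kinase (-0.25, adjusted p = 0.0457). *Cpe* and *Prkar1a* were chosen after their values were seen. Of 13 genes of peptide processing and dense-core granules, 1 rose in the cortex after irradiation and 0 fell. That gene was *Pcsk1*, the prohormone convertase that cuts peptide precursors, which rose from 11.6 ± 0.637 to 16.05 ± 0.618 FPKM (SD, n = 3, log2 fold change 0.44, adjusted p = 0.0170). In the hippocampus 0 of 13 passed, 3 were lower and 0 higher at an unadjusted p under 0.05, where 6.89% and 7.06% of all genes were. Of the 13, 12 had a negative log2 fold change, as did 7407 of all 14043 genes, and the median was -0.09 against -0.01 over all genes. The extremes there were *Cadps2*, a priming factor of granule release, at -0.41 (adjusted p = 0.273) and *Pcsk1* at -0.23 (adjusted p = 0.464).

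Genes that mark somatostatin interneurons beside *Sst* itself did not pass the test in either region after irradiation, with or without hippocampus Con 3. In the hippocampus 16 of 20 listed genes were tested, with 1 higher and 1 lower at an unadjusted p under 0.05, where 7.06% and 6.89% of all genes were. The median log2 fold change of the 16 genes was 0.02. The farthest of them were *Pdyn*, the prodynorphin gene, at 0.36 and *Calb2*, the gene of the calcium buffer calretinin, at 0.24. In the cortex 17 were tested, with a median of -0.06 and with 2 lower at an unadjusted p under 0.05, where 5.94% of all genes were. *Reln*, the gene of the secreted protein reelin, was at -0.30 there (adjusted p = 0.171). Between the Con regions, 7 of 16 differed, 2 higher and 5 lower in the hippocampus, where 36.3% of all genes differed. The farthest were *Rxfp1*, a relaxin receptor gene, at -2.16, *Calb2* at 1.62 and *Nos1*, the neuronal nitric oxide synthase gene, at 1.56.

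For 15 genes of other GABA neurons, 0 passed after irradiation in either region, with or without hippocampus Con 3. At an unadjusted p under 0.05 there were 0 in the cortex. In the hippocampus 1 was higher and 2 were lower at that p, where 7.06% and 6.89% of all genes were. The medians were 0.01 and -0.01. *Dlx6*, a transcription factor gene of the interneuron lineage, was at -0.35 (adjusted p = 0.294) and *Htr3a*, a serotonin receptor gene, at 0.22 (adjusted p = 0.292) in the hippocampus. In the regional comparison 1 of the 15 was higher and 7 were lower in the hippocampus, where 19% and 17.3% of all genes were. Among the lower ones were *Lamp5* (log2 fold change -2.64), *Vip* (-2.08) and *Pvalb* (-1.58), which define interneuron classes other than the somatostatin class.

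Downstream of the receptors, 27 of 28 listed effector genes were tested, and 0 passed after irradiation in either region. In the hippocampus 5 were lower and 1 was higher at an unadjusted p under 0.05, where 6.89% and 7.06% of all genes were. *Adcy8*, a calcium-stimulated adenylyl cyclase gene, was at -0.26 (adjusted p = 0.322) and *Arrb2* at 0.26 (adjusted p = 0.230). In the cortex 3 were higher at that p, where 8.16% of all genes were, among them the inhibitory G protein gene *Gnai3* at 0.21 (adjusted p = 0.328). Between the Con regions 9 effectors were higher and 6 lower in the hippocampus, beside 19% and 17.3% of all genes. The farthest were *Rgs4*, a regulator that ends G protein signals, at -1.63, *Cacnb4*, a calcium channel subunit gene, at -1.28 and *Kcnj9*, a subunit gene of the inwardly rectifying potassium channel, at -1.14.

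Of 18 regulators of cAMP and CREB, 1 rose in the cortex and 0 fell. At an unadjusted p under 0.05, 5 were higher and 1 was lower there, where 8.16% and 5.94% of all genes were. *Crem*, which encodes both activators and repressors at CREB sites, rose from 5.64 ± 0.505 to 8.30 ± 0.461 FPKM (SD, n = 3, log2 fold change 0.49, adjusted p = 0.0321). In the hippocampus 0 of 18 passed, and *Crem* was at -0.04. At an unadjusted p under 0.05, 3 were higher and 0 lower there, where 7.06% and 6.89% of all genes were. *Sik1*, a kinase that restrains the CREB coactivators, was at 0.33 (adjusted p = 0.397) and *Crtc1*, such a coactivator, at 0.23 (adjusted p = 0.278) in the hippocampus. The interaction of IR and region for *Crem* was -0.53 (adjusted p = 0.161), so its response was not shown to differ between the regions.

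**Figure D4:**
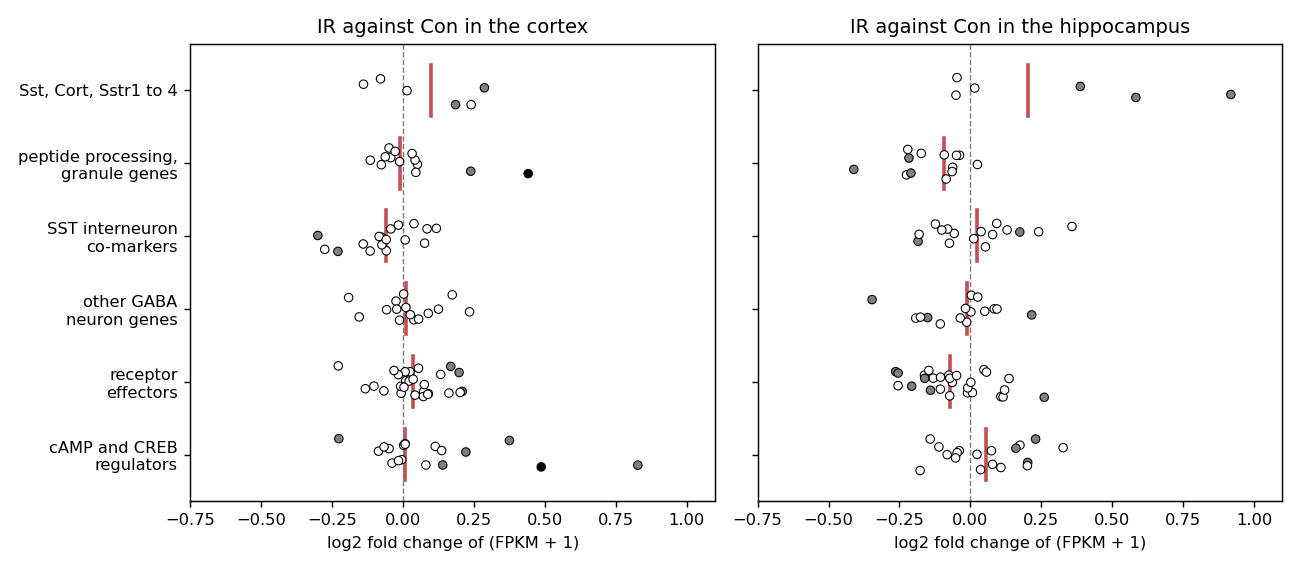
Log2 fold changes of FPKM + 1 for IR against Con (x axis) of the 6 genes and of the genes in 5 lists (y axis), in the cortex (left) and the hippocampus (right), with the median of each list as a red bar and points filled black at an adjusted p under 0.05 and grey at an unadjusted p under 0.05 only. *Pcsk1* and *Crem* in the cortex are the black points, and in the hippocampus *Cort*, *Sstr2* and *Sstr1* are the grey points on the right in the top row.

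Markers of other cells were read beside these genes. Of all single genes, 19.8% in the hippocampus and 20.3% in the cortex had no overlap between Con and IR. In the hippocampus, the 4 microglia markers were all lower in IR, with summed FPKM of 39.7 to 44.6 in Con and 30.4 to 33.9 in IR, and the 3 endothelium markers were all higher, with sums of 33.4 to 39.0 in Con and 43.7 to 45.1 in IR. In the cortex, the 4 microglia markers were also all lower, with sums of 38.8 to 43.0 in Con and 30.2 to 39.97 in IR, which overlapped. The sums of the 4 oligodendrocyte markers in the cortex were 929 to 1150.0 in Con and 1171 to 1417 in IR, and those of the endothelium markers 35.5 to 44.5 in Con and 47.4 to 56.0 in IR. In the hippocampus 2 oligodendrocyte markers were higher and 2 lower, with sums of 956 to 1158 in Con and 901 to 1153 in IR. The 4 astrocyte markers were all lower in IR in both regions, with sums that overlapped between Con and IR. Within a region 0 of these markers passed the adjusted test, and over both regions 1 of 4 microglia markers, *Cx3cr1*, fell (log2 fold change -0.38, adjusted p = 0.0267) and 1 of 3 endothelium markers, *Cldn5*, rose (0.46, adjusted p = 0.0231). No microglia, endothelium or oligodendrocyte marker was listed at 0 in all libraries of a group. The 5 choroid plexus markers varied widely between libraries, with sums of 3.47 to 30.01 in Con and 15.7 to 438 in IR in the cortex, and 22.7 to 1057.5 and 23.8 to 1645 in the hippocampus. The 3 pituitary markers were low, with sums of 0 to 0.241 in Con, where 2 of them were listed at 0 throughout, and 0.467 to 5.53 in IR in the cortex, and 0.155 to 1.42 and 0.244 to 11.1 in the hippocampus. The part of these cells and tissues in the values of the 6 genes was not tested. The 4 neuron markers overlapped between Con and IR, with sums of 2096 to 2346 and 2127 to 2216 in the hippocampus. As a measure of cortical tissue in the hippocampus samples, the sums of the 5 cortex markers were 34.2 to 42.3 in Con and 40.4 to 41.6 in IR and overlapped, against 117 to 144 in the Con cortex. Of the 6 hippocampus markers, 3 were higher and 3 lower in the IR hippocampus, and their sums overlapped. *Prox1* was listed at 14.4 to 16.7 FPKM in Con and 18.8 to 21.1 in IR, and *Ociad2* at 52.1 to 63.6 and 47.6 to 52.3.

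Among the 12 libraries, after the mean of each region was subtracted, *Cort* and *Sstr2* went together (r = 0.89 of log2(FPKM + 1)), and *Cort* and *Sstr1* had an r of 0.63. *Sstr3* and *Sstr4* ran against each other (r = -0.74), and *Sst* and *Cort* had an r of 0.34. These values are descriptions, since the libraries share their treatment groups, which by themselves make genes that differ between Con and IR alike. Of 11917 genes with at least 1 FPKM in every library, the most like *Sst* were *Extl1* (r = 0.94), *Ldb2* (0.92) and *Usp29* (0.86), and the most like *Cort* were *Fam171a2*, *Ptdss2* and *Ubl4a* (0.91, 0.91 and 0.89). For the receptors they were *Kif3b*, *Ap4m1* and *Smg6* for *Sstr1* (0.88 to 0.90), *Lyz2*, *Mrpl36* and *Lrig1* for *Sstr2* (0.89 to 0.93), *6430548M08Rik*, *Tmem242* and *Larp1b* for *Sstr3* (0.92 to 0.93), and *Camk1g*, *Hivep3* and *Ppard* for *Sstr4* (0.89 to 0.91).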

How the data were processed

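The authors deposited 1 table of FPKM per library, which per the paper's methods came from reads trimmed, aligned with TopHat, quantified with Cufflinks and scaled by a geometric normalization. The submitters' processing notes name TopHat and mm10. The paper's methods name poly(A) selection and the labels name total RNA, and which of them holds was not settled here. No read counts were used here, so counting error is not given.

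Genes that reached 0.5 FPKM in 3 or more libraries of a fit were tested on log2(FPKM + 1) with limma 3.58.1 (variance trend, robust prior) in R 4.3.3, and p values were adjusted by the Benjamini-Hochberg method over all tested genes. Fold changes on this scale understate those of low genes. The fits compared IR with Con in each region, hippocampus with cortex in Con, and, over all 12 libraries, the interaction and the shared difference. A gene is said to have risen or fallen only at an adjusted p under 0.05, and a fold of 1.5 with an unadjusted p under 0.05 was counted beside it. The exact permutation test was two-sided. The steps were tested on simulated data. The library number was not used as a block.

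The 6 genes, the lists and the markers were chosen with earlier results of these data known. Genes named from a list were taken, not always in full, from those with an adjusted p under 0.05 (at most 3, those with the largest fold change) or otherwise up to 2 with the largest fold change. The neighbours and the 3 genes most like each of the 6 were named too. The value of *Crem* in the hippocampus is given because it was called in the cortex. Python 3.11.15 with matplotlib 3.10.9 drew the figures.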

Additional observations from a re-analysis of the deposited data

How the results depend on the processing

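Alternatives were no filter, a filter of 1 FPKM in every library, a pseudocount of 0.1, quantile normalization, limma without trend or robust prior, all 12 libraries in a single fit, the library number as a block, and each library left out. Of 450 fold changes of the 6 genes under an alternative, 426 kept direction and side of the threshold, 15 reversed, 4 passed the threshold that they had missed and 5 no longer passed it. With the replicate block, and in the single fit, 1 of the 6 genes instead of 2 had an unadjusted p under 0.05 in the cortex. Leaving out 1 library gave 1 to 3 there, 0 to 1 genes past the adjusted test in the hippocampus (1 without Con 3) and over both regions (1 without cortex IR 2), and 1 to 4 genes with an unadjusted interaction p under 0.05 (1 without IR 2 of either region). Same-numbered Con and IR libraries did not deviate together (r across genes of -0.39 to 0.11), so the numbers were not taken to pair them. Reversals concerned small values: leaving out 1 library moved *Sst* in the cortex between -0.0521 and 0.0980 and in the hippocampus between -0.25 and 0.13, *Sstr3* in the hippocampus between -0.17 and 0.0484, *Sstr4* there between -0.0327 and 0.0935, the interaction of *Sst* between -0.26 and 0.11 and of *Sstr3* between -0.0266 and 0.19, and *Sst* over both regions between -0.10 and 0.0644, where quantile normalization gave 0.0260. The cause was not tested. *Sst* passed the regional test in the single fit (adjusted p = 0.0172) and without hippocampus Con 3, and *Sstr1* did not without the filter (adjusted p = 0.0528) or without 1 of 4 libraries. Over all genes, calls ranged from 16 to 107 in the cortex (102 as reported), 0 to 880 in the hippocampus (4) and 3591 to 6294 between regions (5147). They ranged from 0 to 480 for the interaction (12 as reported) and from 15 to 335 over both regions (178). With the block, calls in the hippocampus went from 4 to 1. An alternative chosen after seeing the data left out each hippocampus library for the gene lists. The genes of a list past the adjusted test there ranged from 0 to 1 for peptide processing, receptor effectors and cAMP regulators, with 1 only without Con 3, and were 0 throughout for the other lists. Depth in reads is unknown, and 3 libraries a group limit the precision.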
